A study of Mus musculus with 12 samples.

Results

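The genes of 5 secreted stress hormones, Stc1, Stc2, Gdf15, Fgf21 and Adm2, were followed across whole mouse embryos that were knockout, heterozygous or wild-type for Mfsd12. They were taken by name from a count table of 41079 genes. The set was put together with the differences between the genotypes in these embryos known. Every knockout, heterozygous or wild-type level of these 5 genes below is therefore a description, and no p-value is given for it. The count filter (filterByExpr of edgeR) kept 3 of the 5, Stc1, Stc2 and Adm2. Gdf15 and Fgf21 had too few reads and are described by their reads.

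The embryos came from timed matings of Mfsd12 heterozygous breeders and were taken at 10.0 to 11.0 days post-fertilization. The Mfsd12 protein sits in the membrane of lysosomes and melanosomes and is needed for cysteine to enter them. Per the labels there were 4 knockout, 4 heterozygous and 4 wild-type embryos, each a separate animal, with no stage per embryo and no agent given. The labels do not give the strain, the kind of Mfsd12 allele or whether the loss was limited to some cells. Each title carries a number (4, 4.1b, 14, 15 or 18) whose meaning the labels do not give. Only numbers 4 and 18 occur with all 3 genotypes. RNA of the whole embryo was measured, so fewer cells of a type and less RNA per cell cannot be told apart.

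All 5 proteins leave the cell and act on other cells. STC1 and STC2 are stanniocalcins, glycoproteins that bind and block the pappalysins, proteases that release insulin-like growth factors from their binding proteins. GDF15 is a distant member of the TGF-beta family that lowers appetite through the hindbrain receptor GFRAL. FGF21 is an endocrine fibroblast growth factor, made mainly by liver in adults, that acts through FGF receptors with the co-receptor beta-Klotho. ADM2, also called intermedin, is a vasoactive peptide of the calcitonin family. When amino acids run short or protein folding fails, kinases that phosphorylate eIF2alpha raise translation of the transcription factor ATF4, and Stc2, Gdf15, Fgf21 and Adm2 are known ATF4 responders. Stc1 is better known as a gene induced by low oxygen through HIF.

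The upstream sequences of the genes that were higher in knockout embryos are shown because ATF4 and its partners bind DNA directly. The 250 bases before the annotated start came from RefSeq on GRCm38.p6, a different build from that of the counts, and 4 of the 5 genes matched an entry. Capitals mark 2 searched motifs, TGATGNAA or its reverse complement TTNCATCA (the composite C/EBP-ATF element), and ACGTG or CACGT (a hypoxia element core, which overlaps itself on both strands within CACGTG). Each line runs 5' to 3' on the gene's strand, from chr7:45615491-45615740 (minus strand) for Fgf21, chr11:31370062-31370311 (minus strand) for Stc2 and chr15:89322470-89322719 (plus strand) for Adm2.
Fgf21: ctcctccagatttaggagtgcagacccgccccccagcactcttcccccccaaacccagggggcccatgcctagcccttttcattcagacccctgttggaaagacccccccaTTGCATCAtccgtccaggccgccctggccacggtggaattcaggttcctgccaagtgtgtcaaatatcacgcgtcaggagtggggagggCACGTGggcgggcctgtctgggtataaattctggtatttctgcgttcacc
Stc2: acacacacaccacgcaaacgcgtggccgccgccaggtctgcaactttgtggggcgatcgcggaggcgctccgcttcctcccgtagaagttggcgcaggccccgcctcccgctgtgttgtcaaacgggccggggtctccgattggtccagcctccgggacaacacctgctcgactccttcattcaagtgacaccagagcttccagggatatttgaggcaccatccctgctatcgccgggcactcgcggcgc
Adm2: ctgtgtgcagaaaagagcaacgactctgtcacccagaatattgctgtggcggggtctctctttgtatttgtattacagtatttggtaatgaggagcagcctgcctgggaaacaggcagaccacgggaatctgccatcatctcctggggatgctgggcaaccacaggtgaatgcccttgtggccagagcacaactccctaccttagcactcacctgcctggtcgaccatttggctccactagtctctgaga
The Fgf21 window held TTGCATCA from 139 to 132 bases before the start and CACGTG from 50 to 45 bases before it. The Stc2 and Adm2 windows held neither motif, which says only that these letters are not in these windows. For Gdf15, which was not higher in knockout embryos and is not shown, a window held CACGTG from 83 to 78 bases before its start. That window lacked the composite element, and the other Gdf15 window held neither motif. Among 32851 promoter windows of this length, 3.45% held the composite element on either strand and 16.6% the hypoxia core, and 0.791% held TTGCATCA on either strand. A match of letters is a description and not evidence of binding. On GRCm39, the build of the counts, Stc2 lies on chromosome 11 from 31309441 to 31320061, Adm2 on chromosome 15 from 89206923 to 89208934, Stc1 on chromosome 14 from 69266738 to 69278850, Fgf21 on chromosome 7 from 45263314 to 45264914 and Gdf15 on chromosome 8 from 71082043 to 71085106. No other annotated gene shared exon bases with any of the 5. The unspliced span of Stc1 is overlapped by Gm41192 on the other strand, and counting did not use strand.

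The libraries held 53133084 to 67977990 counted reads, and no pair agreed within sampling noise. Mfsd12 was the check of the labels: 2.31 to 3.57 CPM (reads scaled to a common library size) in knockout embryos, 5.91 to 8.84 CPM in 3 heterozygous embryos and 9.37 to 16.2 CPM in wild-type embryos (log2 fold change of knockout over wild-type -2.01 ± 0.33 SE; exact two-sided permutation p = 0.0286, n = 4 each, the smallest that 4 against 4 allows). Mfsd12 shares exon bases with Tektip1, which lies on the other strand, so some of its reads may be from that gene. At 2.57 CPM, the library labelled heterozygous 2 fell in the range of knockout embryos and against its label. It also stood apart for 3 of the 5 hormone genes, so their comparisons with heterozygous embryos are given with and without it. Markers of extraembryonic tissue differed between embryos. In knockout 3, 10 visceral yolk sac endoderm markers summed to 1423 CPM, while knockout embryos 1, 2 and 4 had 53.2 to 108 CPM, 46.5 to 182.5 CPM in heterozygous and 50.9 to 97.3 CPM in wild-type embryos. In knockout 4, 10 trophoblast markers summed to 78.5 CPM, against 3.54 to 8.42 CPM in all other embryos (Ctsq at 0 in every genotype, Tpbpa also at 0 in wild-type embryos), and 6 decidua markers summed to 304 CPM, against 63.0 to 93.6 CPM. Marker sums of embryonic cell types also differed between knockout and wild-type embryos, with ranges that overlapped. In knockout embryos 8 erythroid markers summed to 4608 to 16750 CPM, against 15730 to 73870 CPM in wild-type embryos, 8 macrophage markers to 10.55 to 105 CPM, against 64.8 to 186 CPM in wild-type embryos, and 6 neuron markers to 141 to 311 CPM, against 299 to 441 CPM in wild-type embryos. Between knockout and wild-type embryos 0 of 8 erythroid markers had a higher estimate (median log2 fold change -1.62), 0 of 8 macrophage markers (-1.23) and 1 of 6 neuron markers (-0.69). EdgeR called none of them. At an unadjusted p under 0.05, 7 erythroid, 2 macrophage and 3 neuron markers were lower in knockout embryos, against 848 of all 20771 genes. DESeq2 called 1, an erythroid marker, lower in knockout embryos. Macrophage markers also differed by title number, with 7 of 8 called higher by edgeR in number 18 than in number 4 (median log2 fold change 1.33). In number 18, wild-type embryos had 186 and 132 CPM and the knockout embryo 105 CPM. In number 4, wild-type embryos had 73.2 and 64.8 CPM and the knockout embryo 40.3 CPM. The part of the number in the lower knockout sums was not tested. Other markers differed by number too. EdgeR called 4 of 10 yolk sac endoderm markers (median 1.85) and 3 of 8 hepatoblast markers (median 2.32) higher in number 18. Of all 21492 genes it called 1021 higher there and 667 lower. It called 2 of 6 heart and 2 of 5 endothelium markers lower in number 18. Knockout 3 is among the number 18 embryos of this comparison. The library labelled heterozygous 2 had the highest sums of 5 endothelium markers (501 CPM, against 170 to 294.5 CPM in all others) and of 6 heart markers (1288 CPM, against 366 to 1004 CPM). The part of any of these cell types in the hormone levels was not tested. A stage index made from genes that go up or down as embryos age ran from -3.53 to 0.524 in knockout, from -0.254 to 1.59 in heterozygous and from -0.292 to 1.94 in wild-type embryos, with knockout embryos 1, 2 and 4 below every other embryo.

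Stc2, the second stanniocalcin, was the most abundant of the 5 hormone genes in every knockout embryo and was higher there than in any wild-type embryo. Its level was 32.05, 23.5, 6.86 and 17.7 CPM in knockout embryos 1 to 4. It was 1.93, 3.45 and 2.998 CPM in heterozygous embryos 1, 3 and 4, and 74.3 CPM in the library labelled heterozygous 2. Wild-type embryos 1 to 4 had 1.48, 1.64, 3.95 and 3.98 CPM. Knockout and wild-type embryos did not overlap, knockout 3 was the lowest knockout, and the highest value of all was in the library labelled heterozygous 2. The means were 20.03 ± 10.6 CPM in knockout embryos and 2.76 ± 1.39 CPM in wild-type embryos (SD, n = 4 each), a log2 fold change of 2.86 ± 1.04 (SE). Leaving out each embryo in turn moved it between 2.54, without knockout 1, and 3.16, without knockout 3, the embryo with the yolk sac markers.

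Adm2, at a lower level, ranked the knockout embryos in the same order as Stc2. Knockout embryos 1 to 4 had 4.48, 2.14, 0.718 and 1.35 CPM. Heterozygous embryos 1, 3 and 4 had 0.0875, 0.1645 and 0.440 CPM, the library labelled heterozygous 2 had 7.80 CPM, and wild-type embryos 1 to 4 had 0.138, 0.232, 0.0599 and 0.365 CPM. Again no knockout embryo overlapped a wild-type embryo, and the library labelled heterozygous 2 was the highest. The means were 2.17 ± 1.64 CPM in knockout embryos and 0.199 ± 0.131 CPM in wild-type embryos (SD, n = 4 each), a log2 fold change of 3.44 ± 1.22 (SE), between 2.82 without knockout 1 and 3.90 when other embryos were left out in turn. The wild-type level rested on few reads, 49 over the 4 embryos, against 509 over the 4 knockout embryos.

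Stc1, the first stanniocalcin, differed from Stc2. It had 4.71, 4.14, 3.91 and 5.52 CPM in knockout embryos 1 to 4, against 2.93, 4.01, 4.66 and 3.44 CPM in wild-type embryos 1 to 4. Heterozygous embryos 1, 3 and 4 had 4.20, 3.90 and 4.40 CPM. The groups overlapped, and the log2 fold change of knockout over wild-type was 0.28 ± 0.56 (SE), between 0.18 and 0.41 with each embryo left out in turn. The library labelled heterozygous 2 alone stood out, with 29.0 CPM.

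Fgf21 was at the limit of detection. Knockout embryos 1 to 4 had 18, 42, 0 and 6 reads. Heterozygous embryos 1, 3 and 4 had 0, 2 and 0 reads, the library labelled heterozygous 2 had 2, and wild-type embryos 1 to 4 had 0, 0, 2 and 0. Reads above this low level lay in knockout embryos 1, 2 and 4, and knockout 3 had none. In all, 66 reads were counted in knockout and 2 in wild-type embryos. Both mates of a pair were counted and all Fgf21 counts were even, so these are 33 and 1 read pairs. The ratio of knockout over wild-type, scaled by the TMM-scaled totals, was 33.8. It pools the reads of 4 embryos per genotype, with 42 of the 66 knockout reads in knockout 2, and is a description only. A count of 0 in these libraries allows 3 counts, which is 0.0435 to 0.0634 CPM. Counted in reads, Fgf21 passed this floor in knockout embryos 1, 2 and 4 and in no heterozygous or wild-type embryo. Counted in read pairs, the 6 reads of knockout 4 reach a floor of 3 without passing it. Knockout embryos 1 and 2 pass it in either unit.

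Gdf15 was barely detected in any genotype. Knockout embryos 1 to 4 had 0, 0, 8 and 0 reads, heterozygous embryos 1, 3 and 4 had 2, 4 and 0, the library labelled heterozygous 2 had 10, and wild-type embryos 1 to 4 had 4, 2, 0 and 1. The highest level was 0.211 CPM. Knockout embryos 1 and 2, which were high for Stc2, Adm2 and Fgf21, had no Gdf15 read, and no genotype difference was detectable at this depth. Per kilobase of exon, the order of levels in knockout embryos was Stc2 with 11.2 CPM per kilobase, Adm2 with 1.67, Stc1 with 1.22, Fgf21 with 0.295 and Gdf15 with 0.0219. In wild-type embryos it was Stc2 with 1.54 CPM per kilobase, Stc1 with 1.004, Adm2 with 0.153, Gdf15 with 0.0206 and Fgf21 with 0.00790. The ranges over embryos of neighbours in these orders overlapped, apart from Stc2 and Adm2 and Stc1 and Fgf21 in knockout embryos and Stc1 and Adm2 in wild-type embryos.

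**Figure D1:**
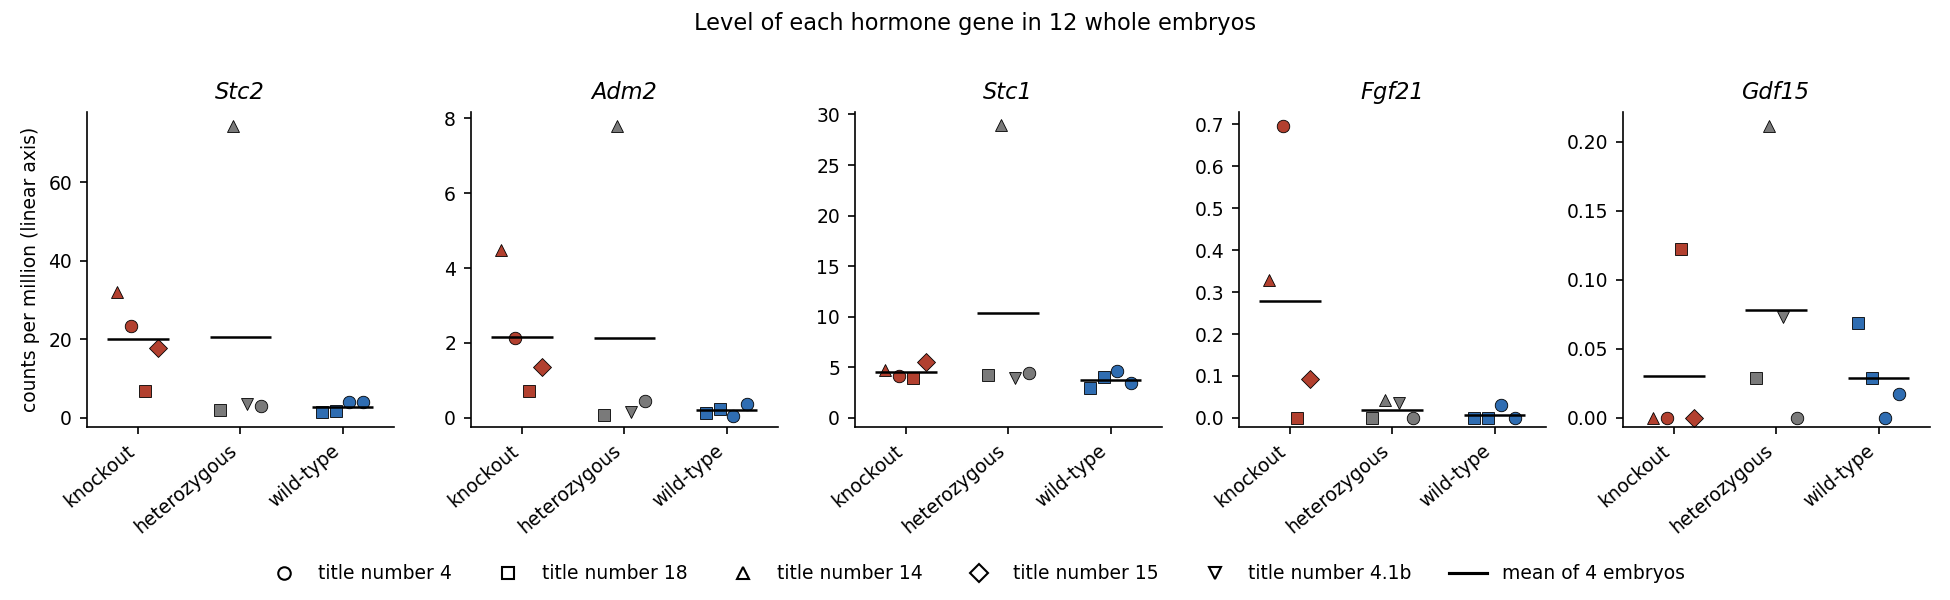
Level of Stc2, Adm2, Stc1, Fgf21 and Gdf15 (y axis, CPM on a linear scale that differs by panel) in 4 knockout, 4 heterozygous and 4 wild-type embryos (x axis). Each point is 1 embryo, its shape is the title number and lines are means of 4. All knockout embryos lie above all wild-type embryos for Stc2 and Adm2, and the single high heterozygous point is the library labelled heterozygous 2 (74.3 CPM of Stc2).

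Beyond these genes, edgeR's quasi-likelihood test with Benjamini-Hochberg adjustment called 0% of 20771 genes between knockout and wild-type embryos, 0% between knockout and heterozygous and 0% between heterozygous and wild-type embryos. At an unadjusted p under 0.05 it listed 1730, 1537 and 209 genes in these comparisons. DESeq2 called 122 genes (0.587%), 74 genes (0.356%) and 4 genes (0.0193%) in the same comparisons, and limma voom called 0 in each. Every knockout embryo was above every wild-type embryo for 1.6% of the genes, above every heterozygous embryo for 1.51%, and every heterozygous embryo was above every wild-type embryo for 0.414%. Of the 3 hormone genes in the filtered table, Stc2 and Adm2 were without overlap between knockout and wild-type embryos. None had every knockout embryo above every heterozygous one, or every heterozygous embryo above every wild-type one. Leaving aside the library labelled heterozygous 2, the lowest knockout embryo was above the highest heterozygous embryo for Stc2 (6.86 against 3.45 CPM) and for Adm2 (0.718 against 0.440 CPM), but not for Stc1 (3.91 against 4.40 CPM). Since the genes were chosen on this contrast, nothing is read from that count.

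One library set the result of both comparisons with heterozygous embryos. With all embryos, the log2 fold change of knockout over heterozygous was -0.04 ± 0.97 (SE) for Stc2, 0.04 ± 1.08 for Adm2 and -1.18 ± 0.56 for Stc1. Without the library labelled heterozygous 2 it was 2.84 ± 0.54 for Stc2, 3.23 ± 0.80 for Adm2 and 0.13 ± 0.22 for Stc1. For heterozygous over wild-type, the values with all embryos were 2.90 ± 1.05 for Stc2, 3.40 ± 1.22 for Adm2 and 1.46 ± 0.56 for Stc1. Without that library they were 0.01 ± 0.49, 0.22 ± 0.75 and 0.15 ± 0.22 in the same order of genes. The other 3 heterozygous embryos averaged 2.79 ± 0.785 CPM of Stc2, 0.231 ± 0.186 CPM of Adm2 and 4.17 ± 0.252 CPM of Stc1 (SD, n = 3), against 2.76 ± 1.39, 0.199 ± 0.131 and 3.76 ± 0.745 CPM in wild-type embryos (n = 4). These comparisons share embryos with each other and with knockout against wild-type.

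**Figure D2:**
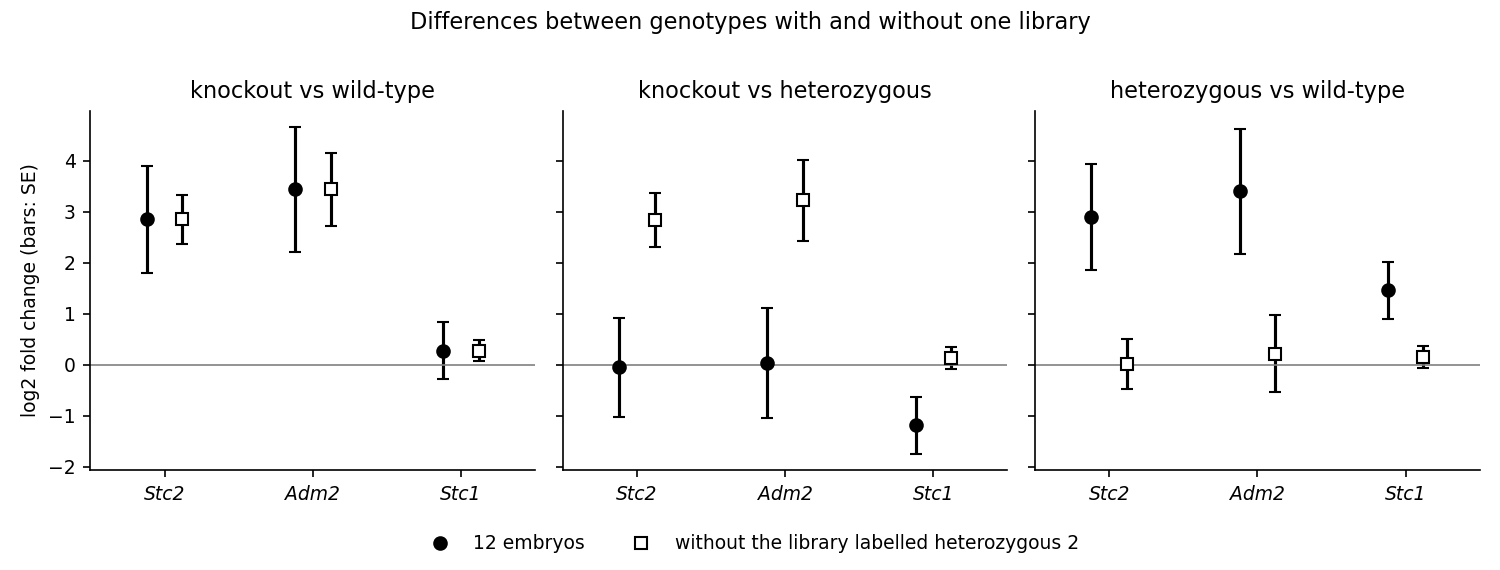
Log2 fold change (y axis, bars are SE) of Stc2, Adm2 and Stc1 for knockout over wild-type, knockout over heterozygous and heterozygous over wild-type embryos. Filled circles use 12 embryos and open squares leave out the library labelled heterozygous 2. The first panel keeps its values (2.86 for Stc2 in both), while in the second Stc2 is at -0.04 with that library and at 2.84 without it.

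The library labelled heterozygous 2 shared the high Stc2 and Adm2 of knockout embryos but differed from them in other genes. Chac1, a glutathione-degrading enzyme and ATF4 target, was at 1.5 CPM there, against 4.27 to 33.1 CPM in knockout embryos and 0.210 to 0.895 CPM in wild-type embryos. Summed over 20 HIF targets it had 15980 CPM, against 2600 to 6095 CPM in all other embryos. Vegfa, the endothelial growth factor induced by low oxygen, was at 311 CPM there, against 49.4 to 85.6 CPM in knockout and 20.3 to 47.2 CPM in wild-type embryos. Its summed level of 39 ATF4 targets, 7956 CPM, was near that of knockout 1, 7565 CPM. Summed over 15 p53 targets it had 777 CPM, against 516 to 642 CPM in all other embryos. Stc1 was high only in this library, in which the summed HIF, ATF4 and p53 targets were all highest. Whether any of these target sets has a part in these Stc1, Stc2 and Adm2 levels was not tested.

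Among the peptides related to the hormones, Adm and Fgf23 stood far apart in the same single library. Adm, the founding adrenomedullin gene, was at 56.7 CPM in that library, against 0.883 to 5.59 CPM in all others. Fgf23, the endocrine FGF that controls phosphate, was at 14.2 CPM there and at most 0.256 CPM elsewhere. Fgf15, the endocrine FGF of embryonic brain and gut, was at 28.6 ± 17.4 CPM in knockout, 14.1 ± 11.5 CPM in heterozygous and 8.08 ± 4.77 CPM in wild-type embryos (SD, n = 4 each). Without the library labelled heterozygous 2, which had 31.3 CPM, the heterozygous mean was 8.43 ± 2.03 CPM (n = 3), near that of wild-type embryos. Knockout over wild-type had a log2 fold change of 1.82 ± 0.62 (edgeR adjusted p = 0.538). Of the calcitonin family, Calca averaged 2.005 CPM in knockout embryos and 1.91 CPM in wild-type embryos, and Calcb and Iapp were at or under 0.321 CPM in every embryo.

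Genes whose level ran most like each hormone gene were taken by Pearson's r of log2 CPM over the 12 embryos, as a description over embryos that share 3 genotypes. For Stc2 they were Slc7a3, a cationic amino acid transporter (r = 0.977), Lars1, the cytosolic leucyl-tRNA synthetase (0.960), and Slc1a5, a neutral amino acid transporter (0.959). Without the library labelled heterozygous 2 these r were 0.976, 0.937 and 0.955. For Adm2 they were Atf3, a stress transcription factor (0.947), Extl1, a glycosyltransferase gene (0.944), and Slc7a3 (0.936), and without that library 0.933, 0.918 and 0.914. For Stc1 they were Abhd18 (0.966), Tbl2 (0.961) and Ezh1 (0.961), but without that library 0.468, 0.169 and 0.305. The likeness of Stc1 to its nearest genes thus rested on 1 embryo. Slc7a3 averaged 39.9 ± 39.1 CPM in knockout embryos and 1.35 ± 0.911 CPM in wild-type embryos (SD, n = 4 each).

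**Figure D3:**
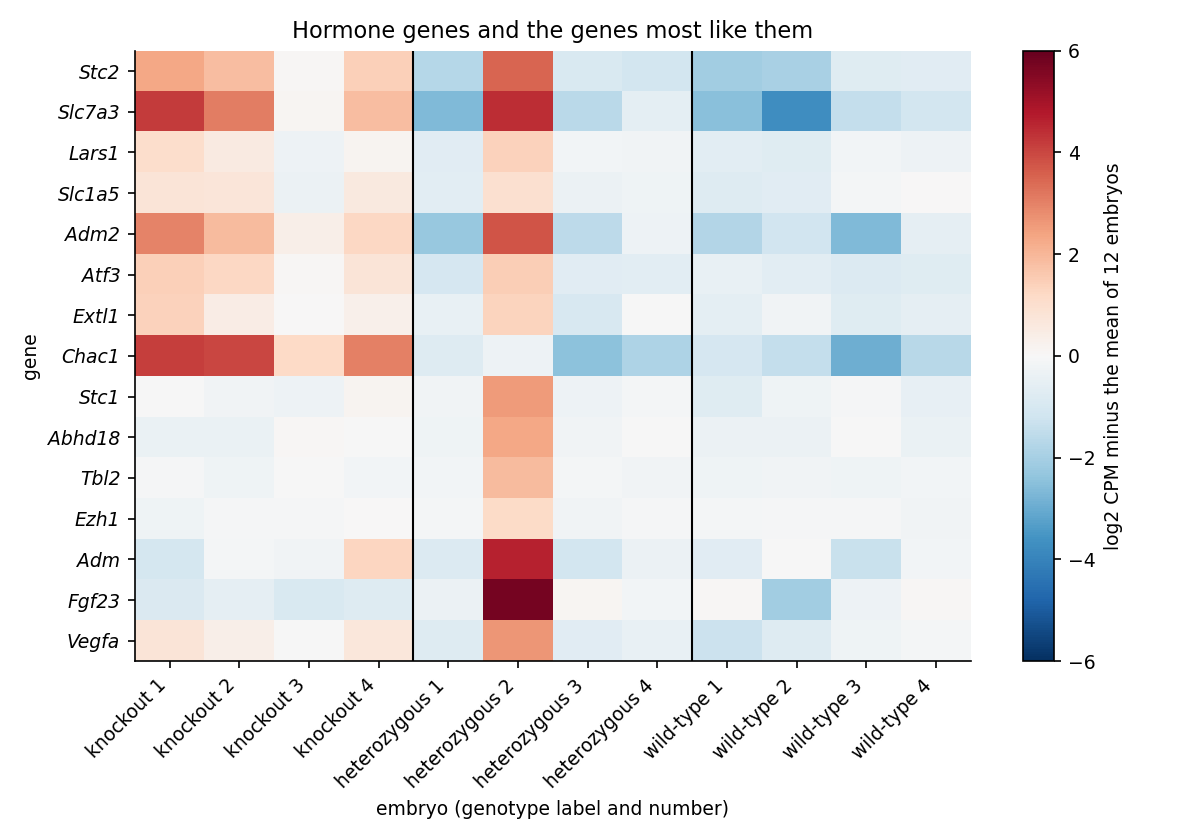
Log2 CPM minus the mean of 12 embryos (colour, red above and blue below the mean) for the hormone genes Stc2, Adm2 and Stc1, each followed by the genes most like it, then Chac1, Adm, Fgf23 and Vegfa for comparison, with Chac1 below the Adm2 group (rows), in each embryo (columns, lines divide the genotypes). Stc2 and Adm2 are above the mean in all 4 knockout embryos, least in knockout 3 (0.08 for Stc2 and 0.37 for Adm2), and in heterozygous 2, and Stc1 is strongly red in heterozygous 2 alone (29.0 CPM there).

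Lists of genes from the pathways that induce these hormones give the setting. Like the other lists here, they were drawn up with earlier results of these data known. Their counts and p-values are therefore a description and not an independent test. Of 39 ATF4 targets, 37 had a higher estimate in knockout than in wild-type embryos, with a median log2 fold change of 1.18, against 51.3% of all genes and a median of 0.0109. Their summed level was 3221 to 7565 CPM in knockout embryos 1, 2 and 4. In knockout 3 it was 2532 CPM, within the 2127 to 2635 CPM of wild-type embryos. For heterozygous over wild-type, 39 of 39 had a higher estimate (median 0.622). The library labelled heterozygous 2 had 7956 CPM there, and heterozygous embryos 1, 3 and 4 had 2107 to 2566 CPM. None passed edgeR's adjusted threshold. At an unadjusted p under 0.05, 26 of the 39 were higher in knockout embryos, against 882 of all 20771 genes. DESeq2 called 7 of the 39, all higher in knockout embryos, among them Chac1 (DESeq2 adjusted p = 1.45e-14) and Sesn2, a leucine-sensing brake on mTORC1 (0.000173). Atf4 itself had 167 to 347 CPM in knockout and 129 to 166 CPM in wild-type embryos (edgeR adjusted p = 0.552). Heterozygous embryos 1, 3 and 4 had 145, 153 and 195 CPM of Atf4, and the library labelled heterozygous 2 had 312 CPM. The other lists of this paragraph, given next, had no edgeR and no DESeq2 call between knockout and wild-type embryos. Of 20 HIF targets 17 had a higher estimate (median 0.176), of 19 genes of the unfolded protein response of the endoplasmic reticulum 10 (0.0536), of 9 mitochondrial chaperones and proteases 4 (-0.00369), and of 15 targets of p53, which induces Gdf15 in other settings, 9 (0.149). Of 8 tested PPAR-alpha targets, the fasting programme that induces Fgf21 in adult liver, 1 had a higher estimate (median -0.199). Of 9 other secreted stress factors 4 did (median -0.0139).

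On the receiving side, the receptors and partners were mostly present, and none passed the edgeR threshold between knockout and wild-type embryos. Of 18 such genes 17 passed the count filter, 9 had a higher estimate in knockout embryos, and the median log2 fold change was 0.0524, against 0.0109 over all genes. Gfral, the GDF15 receptor, had 2 reads over knockout, 0 over heterozygous and 1 over wild-type embryos, a total under the floor of 3 counts in each genotype. Its signalling partner Ret was at 9.26 ± 6.18 CPM in knockout embryos and 5.43 ± 2.04 CPM in wild-type embryos, with 18.5 CPM in knockout 4. Fgfr1, the main FGF21 receptor, was at 136 ± 19.4 CPM in knockout, 138 ± 15.6 CPM in heterozygous and 138 ± 20.9 CPM in wild-type embryos (SD, n = 4 each), a log2 fold change of -0.02 ± 0.15 for knockout over wild-type.

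Klb, which encodes beta-Klotho, was the receptor gene with the largest estimate. It had 0.548, 0.663, 6.98 and 0.874 CPM in knockout embryos 1 to 4, against 0.189, 0.246, 0.299 and 0.295 CPM in wild-type embryos 1 to 4. The groups did not overlap, and 1 knockout embryo was far above the others. The log2 fold change was 3.13 ± 0.84 (SE; edgeR adjusted p = 0.537, DESeq2 adjusted p = 0.018), and 1.44 without knockout 3. Knockout 3 also had the highest yolk sac marker sum and the highest hepatoblast marker sum, 3551 CPM where knockout embryos 1, 2 and 4 had 142 to 257 CPM, and the part of these cells in the Klb level was not tested. Knockout 3 is of title number 18, in which both marker lists had genes called higher than in number 4. Heterozygous embryos 1, 3 and 4 had 1.14, 0.585 and 0.644 CPM of Klb, and the library labelled heterozygous 2 had 0.148 CPM.

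The ADM2 receptor gene Calcrl was at 29.8 ± 6.91 CPM in knockout embryos and 22.25 ± 4.89 CPM in wild-type embryos. Its partner Ramp2 was at 11.3 ± 0.821 CPM in knockout embryos and 14.4 ± 4.80 CPM in wild-type embryos (SD, n = 4 each). Among the targets of stanniocalcins, the protease gene Pappa was at 18.1 ± 9.31 CPM in knockout embryos and 7.80 ± 4.17 CPM in wild-type embryos, a log2 fold change of 1.21 ± 0.50 (edgeR adjusted p = 0.586), and Pappa2 at 4.70 ± 4.54 CPM in knockout embryos and 7.365 ± 1.655 CPM in wild-type embryos. The highest Pappa level, 29.95 CPM, was in knockout 4, the embryo with the trophoblast and decidua markers, and without it the fold change was 0.86. The part of those cells in the Pappa level was not tested. The Pappa substrates were abundant, with Igfbp4 at 398 ± 91.1 CPM in knockout embryos and 469 ± 102 CPM in wild-type embryos, and Igfbp5 at 558 ± 86.5 CPM in knockout embryos and 629 ± 116 CPM in wild-type embryos.

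**Figure D4:**
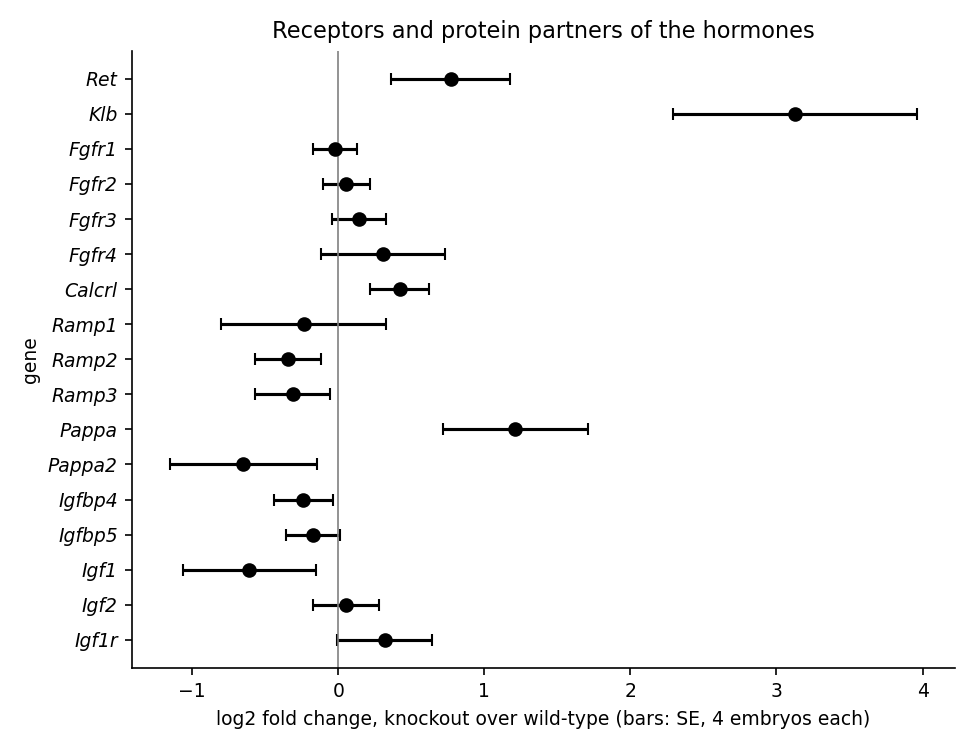
Log2 fold change of knockout over wild-type embryos (x axis, bars are SE, 4 embryos each) for the 17 tested receptors and partners of the hormones (y axis). Klb, at 3.13, and Pappa, at 1.21, have the highest estimates, and Fgfr1 is at -0.02.

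The title number was not used to choose the genes, and it could be tested. Embryos of number 18 and of number 4 were compared in 8 embryos, with 1 knockout, 1 heterozygous and 2 wild-type embryos of each number and genotype as a term. Stc2 was lower in number 18 embryos in every genotype: 6.86 CPM against 23.5 CPM in number 4 among knockout embryos, 1.93 CPM against 2.998 CPM among heterozygous embryos, and 1.48 and 1.64 CPM against 3.95 and 3.98 CPM among wild-type embryos. The log2 fold change of number 18 over number 4 was -1.29 ± 0.21 (SE; edgeR adjusted p = 0.0134). An exact two-sided permutation of the numbers within genotypes gave p = 0.0833, the smallest of its 24 arrangements. Of 21492 genes tested, 7.85% were called and 3.1% were called lower in number 18, so Stc2 was 1 of 667 such genes. The edgeR call was lost without wild-type 2 (-1.31, adjusted p = 0.0555) and without wild-type 4 (-1.28, 0.0589), and when all 12 embryos were fitted (-1.38, 0.123).

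The numbers also differed in stage index, with 0.524 to 1.94 in number 18 and -1.70 to 0.333 in number 4 embryos, which did not overlap. With the index as a covariate the Stc2 difference between numbers was -0.67 ± 0.63 (adjusted p = 0.598), so number and stage index could not be told apart. Adm2 gave -1.09 ± 0.61 (edgeR adjusted p = 0.267, exact permutation p = 0.333) and Stc1 gave -0.15 ± 0.19 (edgeR adjusted p = 0.621, exact permutation p = 0.333). The genes most like Stc2 were picked for following it over these embryos, so their values are a description only: the log2 fold change of number 18 over number 4 was -2.22 ± 0.31 for Slc7a3, -0.55 ± 0.12 for Lars1 and -0.71 ± 0.14 for Slc1a5. Among the receptors and partners, Pappa was lower in number 18 (-1.14 ± 0.26, adjusted p = 0.0361).

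**Figure D5:**
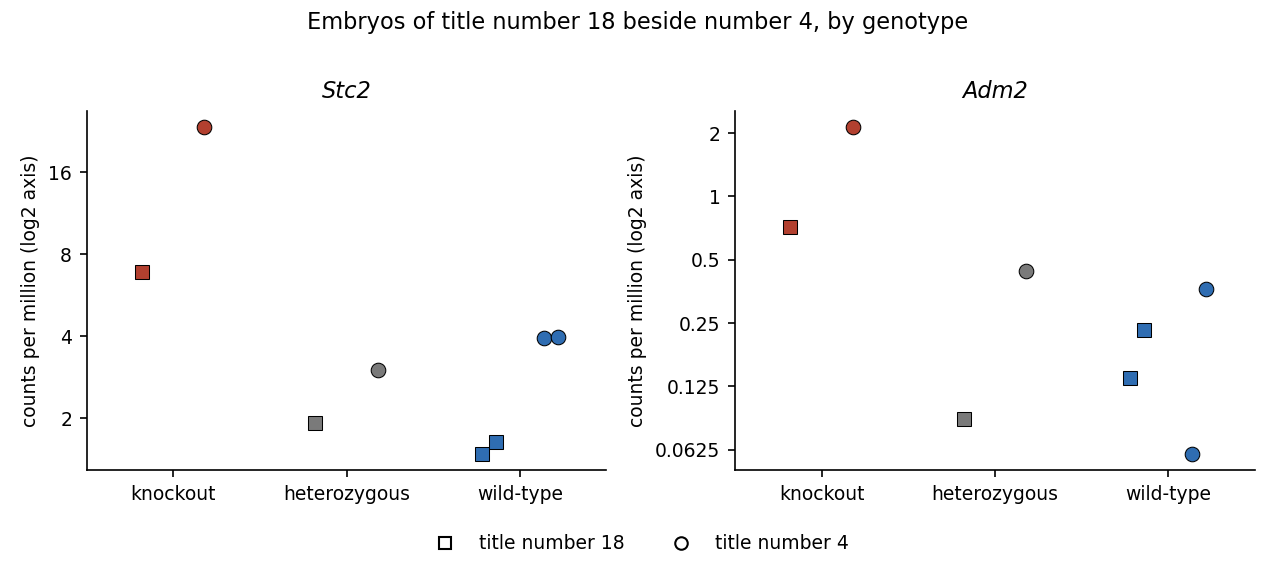
Stc2 and Adm2 levels (y axis, CPM on a log2 scale) in the 8 embryos of title number 18 (squares) and 4 (circles), by genotype (x axis). Each point is 1 embryo. Within each genotype number 18 lies below number 4 for Stc2, while for Adm2 the wild-type embryos of the 2 numbers overlap.

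Stc2 and Adm2 were higher in the knockout embryo than in the wild-type embryos within both numbers, while Stc1 was near 1-fold. In number 18 embryos, knockout over wild-type was 4.40-fold for Stc2, 3.88-fold for Adm2 and 1.13-fold for Stc1 (1 knockout and 2 wild-type embryos, no test). In number 4 embryos it was 5.92-fold for Stc2, 10.1-fold for Adm2 and 1.02-fold for Stc1. In number 14 the knockout embryo had 32.05 CPM of Stc2, 4.48 CPM of Adm2 and 4.71 CPM of Stc1, against 74.3, 7.80 and 29.0 CPM in its only partner, the library labelled heterozygous 2. With the title number as a term, knockout over wild-type was 1.92 for Stc2 and 2.23 for Adm2 on the log2 scale, and with the stage index as a covariate 1.31 ± 1.15 and 2.25 ± 1.56. Stc1 was at -0.25 and -0.37 in these fits, opposite in sign to its value of 0.28 without them. Its SE was larger than the size of the estimate in all 3 fits: 0.41 with the title number, 0.67 with the stage index and 0.56 without them. All of these fits include the library labelled heterozygous 2. In the fit with the title number, number 14 enters only as knockout 1 against that library, a log2 difference of -2.61 for Stc1. Within numbers 18 and 4, knockout minus wild-type was 0.19 and 0.05 for Stc1. Knockout 4 and heterozygous 3 were alone in their numbers. The part of that library in the fitted values was not tested.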

How the data were processed

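RNA of 12 whole embryos was sequenced from mRNA libraries of 325 ng RNA, per the labels' protocols. The authors deposited 1 table of expected counts per gene, not normalized, made with featureCounts 2.0.6 on the RefSeq annotation of GRCm39, per the file headers. Reads mapping to several places or genes gave fractions, each mate was counted and strand was not used. DRAGEN and Subread are named without a role in the submitters' processing notes. Counts were rounded, filtered with filterByExpr, scaled by TMM and tested by quasi-likelihood in edgeR 4.0.16 under R 4.3.3 (two-sided, Benjamini-Hochberg, threshold 0.05), tested on simulated data. CPM uses TMM-scaled totals, and log2 CPM a prior count of 2. Totals were 53133084 to 67977990 reads. Embryo numbers follow deposition order and pair nothing. Alternatives were DESeq2 1.42.0, voom of limma 3.58.1 with sample weights, other scalings and filters, covariates, and each embryo left out. The hormone genes and all lists were chosen with earlier results of these data known. Named genes were all hormone genes, receptors, relatives, the 3 genes most like each hormone gene by r, and per other list the 2 with the smallest p and the most abundant. Atf4 was added after its values were seen. The stage index is the mean z score of later minus earlier genes.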

Additional observations from a re-analysis of the deposited data

Results flagged for a closer look

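Single embryos stood apart from the other 3 of their genotype in 23 of 174 groups of 4 embryos (58 named genes in 3 genotypes), judged by the gap to the nearest embryo against the range; chance gives about 1 in 20 groups. That rate is no yardstick for the hormone genes, chosen with these levels known, or for genes named for following them over these embryos (Abhd18, Tbl2, Ezh1, Slc7a3, Lars1, Slc1a5, Extl1 and Atf3). The count of 23 includes these genes, and its groups share embryos, so nothing is read from it against that rate. Of the 23, 19 were in the library labelled heterozygous 2, always as the highest. There the hormone genes Stc2, Stc1 and Adm2 were at 74.3, 29.0 and 7.80 CPM, and the related Adm, Fgf15 and Fgf23 at 56.7, 31.3 and 14.2 CPM. The amino acid stress genes Slc7a3, Lars1, Slc1a5, Psat1 and Atf3 were at 109.9, 462, 88.0, 914 and 14.9 CPM. The HIF targets Vegfa, Hk2 and Ldha were at 311, 462 and 4245 CPM. Abhd18, Tbl2 and Ezh1 were at 34.1, 163 and 37.3 CPM, the chaperone Hsp90b1 at 2115 CPM and Fgfr2 at 145 CPM.

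In knockout embryos, Klb in knockout 3 (6.98 CPM), Ret in knockout 4 (18.5 CPM) and Gdf15 in knockout 3 (0.122 CPM, the only knockout embryo with a read) stood apart. In wild-type embryos, Abhd18 did in wild-type 3 (6.69 CPM).

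For 11 named genes, none of them a hormone gene, the knockout embryo lay on opposite sides of the wild-type embryos in the 2 title numbers that allow the comparison. The difference between the numbers was not tested, and each rests on 1 knockout embryo per number. The log2 difference of knockout minus wild-type in number 18 was 0.34 for Fgfr2, 0.64 for Fgfr3, 0.64 for Pappa2, 0.80 for Igf1r, 0.54 for Hsp90b1 and 0.22 for Tbl2, against -0.29, -0.21, -1.51, -0.23, -0.47 and -0.03 in number 4 in the same order. It was -0.65 for Ramp2, -0.73 for Ramp3, -0.47 for Igfbp4, -0.72 for Calca and -0.53 for Manf in number 18, against 0.23, 0.08, 0.39, 0.96 and 0.39 in number 4.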

How the results depend on the processing

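For knockout over wild-type, Stc2 and Adm2 were higher in knockout embryos under every alternative run, lowest for Stc2 with the stage index as a covariate (1.31) and for Adm2 with the title number as a term (2.23). Genes called for knockout against wild-type (0 with edgeR) were 122 with DESeq2, 8 with the stage index as a covariate, 2 with the title number as a term, 0 to 1 with each embryo left out, and 19 without the libraries labelled heterozygous 2 and knockout 3, an alternative chosen after seeing the data. For knockout against heterozygous (0) they were 74 with DESeq2, 33 without those libraries and 0 to 1 with each embryo left out, and for heterozygous against wild-type (0) they were 4 with DESeq2. For title number 18 against 4 (1688) they were 3840 with DESeq2, 7332 with limma voom, 2559 with no count filter, 1 with the stage index, 964 with 12 embryos and 210 to 3910 with each embryo left out. The cause was not tested. The Mfsd12 log2 fold change of knockout over wild-type was -1.34 with the stage index. That index comes from expression alone and was lowest in knockout embryos 1, 2 and 4, so it takes part of any difference that moves with it. With sample weights in limma voom, heterozygous over wild-type was 0.03 for Stc2, 0.68 for Adm2 and 0.27 for Stc1, and knockout over heterozygous 2.64, 2.87 and -0.03. Without a count filter, knockout over wild-type was 4.84 for Fgf21 and 0.11 for Gdf15, fitted values that depend on the prior count. Embryo numbers follow deposition order and pair nothing, so the title number as a term was the one block the labels allowed. Depth limits Gdf15 and Fgf21.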
